A study of Homo sapiens with 4 samples.

Results

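Long internal exons are exons of 400 nt or more that are neither the first nor the last of their transcript. Of the 46757 m6A peaks listed for the 2 immunoprecipitations of the series, 4682 had their midpoint in the coding sequence of such an exon and more than 200 nt upstream of the stop codon. They were taken on coding transcripts with a single GENCODE partner long enough to hold every listed peak, and 35883 of all peaks lay on these transcripts. The members numbered 2426 in the Ctrl library and 2256 in the Cas library. They lay on 1477 genes, 1228 of them with a member peak in both libraries, 172 in Ctrl alone and 77 in Cas alone. The same split over all genes with a listed peak is not given here. No measured level entered the choice beyond the calling of the peaks themselves.

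The data were MeRIP-seq peak lists from HEK293T, an established human embryonic kidney line that is easily transfected. In this assay polyadenylated RNA is broken into fragments of 100 to 300 nt on average, fragments that carry m6A are captured with an antibody, and peaks are places where captured fragments pile up. Every library is labelled with the same treatment, transfection of dCas13b-M14 and a guide RNA, with harvest after 24 h. dCas13b is an RNA-guided protein without cutting activity, the labels do not explain M14, and they do not say how the Ctrl cells differed from the Cas cells. Methylation was directed at sites named for SPEN, YTHDF2 and GAPDH. Each group had 1 immunoprecipitation library, so that every difference given here is one between 2 libraries, without a replicate and without a test. None of 10 marker genes of blood, liver and muscle carried a listed peak, which does not show that their RNA was missing.

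m6A is the most common internal modification of messenger RNA. It is placed during transcription by the METTL3-METTL14 complex on adenosines within the DRACH consensus (D is A, G or T, R is A or G, H is A, C or T), of which GGACT is a frequent form. Most human coding exons are short, and m6A is known to lie near stop codons and in unusually long exons, whereas methylation close to exon junctions is generally low. The mark is read by proteins such as YTHDF2 and influences RNA decay, export and translation.

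The stretches below are bases that a Ctrl peak and a Cas peak had in common, and they are shown because both libraries list a peak there. The 5 genes are ones with many member peaks whose partner transcript starts within 10 nt of the RefSeq gene start. The start of the listed RefSeq transcript itself was not compared, so positions may still be shifted. These genes were chosen after the values had been seen. All are transcript sequence of GENCODE release 29, 5′ to 3′ on the strand of the gene, with DRACH matches in capitals and positions on GRCh38.
KMT2C (exon 36 of 59, chr7:152182249-152182448, minus strand) and BOD1L1 (exon 10 of 26, chr4:13601166-13601345, minus strand) each held 3 DRACH matches and no GGACT.
KMT2C: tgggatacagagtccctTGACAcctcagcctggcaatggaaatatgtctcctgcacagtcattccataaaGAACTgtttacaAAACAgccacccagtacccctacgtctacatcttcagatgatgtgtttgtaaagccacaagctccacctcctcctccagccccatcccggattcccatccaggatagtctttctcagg
BOD1L1: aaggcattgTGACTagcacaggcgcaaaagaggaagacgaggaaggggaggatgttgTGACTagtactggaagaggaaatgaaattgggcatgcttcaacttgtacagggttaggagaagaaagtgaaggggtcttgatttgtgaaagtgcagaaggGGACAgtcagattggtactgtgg
PRR14L (exon 2 of 9, chr22:31738470-31738665, minus strand) held 4 DRACH matches, 2 of them GGACT.
PRR14L: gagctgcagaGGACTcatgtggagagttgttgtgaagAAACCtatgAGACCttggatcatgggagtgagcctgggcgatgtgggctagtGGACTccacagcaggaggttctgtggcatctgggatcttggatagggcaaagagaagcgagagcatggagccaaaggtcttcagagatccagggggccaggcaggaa
AKAP9 (exon 8 of 50, chr7:92001985-92002144, plus strand) held 3 DRACH matches in a stretch 1137 nt from the upstream junction and 1091 nt from the downstream one.
AKAP9: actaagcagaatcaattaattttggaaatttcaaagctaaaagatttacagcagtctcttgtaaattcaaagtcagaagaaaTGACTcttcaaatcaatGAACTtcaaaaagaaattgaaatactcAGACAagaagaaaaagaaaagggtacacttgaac
CENPF (exon 13 of 20, chr1:214644557-214644727, plus strand) held 9 DRACH matches. The bases in common begin at transcript position 5141, upstream of the exon, and are shown from its first base, position 5155.
CENPF: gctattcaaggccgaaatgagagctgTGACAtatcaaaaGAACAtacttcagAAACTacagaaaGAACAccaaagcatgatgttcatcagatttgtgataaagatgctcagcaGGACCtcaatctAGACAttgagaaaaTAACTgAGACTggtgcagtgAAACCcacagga

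A further pair of windows of 81 bases show GGACT inside wide Cas peaks that overlap a Ctrl peak, again on transcripts with matching starts, with GGACT in capitals.
The ANKRD50 window (chr4:124669294-124669374, minus strand) lies 350 nt from the nearest junction of exon 4, and the NPAT window (chr11:108161010-108161090, minus strand) lies 170 nt from that of exon 17. The ANKRD50 motif lies under a peak of both libraries and the NPAT motif under the Cas peak only.
ANKRD50: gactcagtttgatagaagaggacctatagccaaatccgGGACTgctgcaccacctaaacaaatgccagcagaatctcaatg
NPAT: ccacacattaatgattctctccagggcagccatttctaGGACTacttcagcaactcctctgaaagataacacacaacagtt

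Long internal exons carried more peaks per coding base than any other class of coding sequence outside the stop codon region. The density was 1.06 peak midpoints per kb in Ctrl (exact Poisson 95% interval 1.01 to 1.10) and 0.982 in Cas (0.942 to 1.02). Internal exons under 400 nt had 0.465 per kb in Ctrl (0.452 to 0.478) and 0.519 in Cas (0.505 to 0.533). First coding exons had 0.477 and 0.485 per kb. Coding sequence of last exons, again more than 200 nt from the stop codon, had 0.929 in Ctrl and 0.838 in Cas. The long exons were thus 2.27 times as dense as the short ones in Ctrl (2.16 to 2.39) and 1.89 times in Cas (1.80 to 1.99). All such intervals cover the counting of peaks only, and peaks of the same transcript share their RNA.

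The difference held within transcripts. On the 1764 transcripts with coding bases in both kinds of internal exon, the density ratio was 3.09 in Ctrl (2.87 to 3.32) and 2.56 in Cas (2.38 to 2.74). Of the 1517 such transcripts with an internal coding peak in Ctrl, 1262 (83.2%, Wilson 95% interval 81.2 to 85.0) were denser in their long exons. In Cas the long exons were denser on 1159 of 1428 transcripts (81.2%, 79.1 to 83.1). Long exons made up 41.6% of the internal coding bases on these transcripts.

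Most long internal exons of the transcripts examined held a peak; each of these transcripts has at least 1 listed peak, and transcripts without one were not examined. There were 2453 such exons with coding bases in reach of the rule, over 2297 kb, and 1684 (68.7%) held a member peak in Ctrl and 1557 (63.5%) in Cas. Of the 80262 short internal exons, 5.84% held a peak in Ctrl and 6.52% in Cas. Longer exons offer more room for a peak, and the share rose with length from 59.5% of exons of 400 to under 800 nt to 95.8% of those of 3200 nt or more in Ctrl. In Cas these shares were 55.3% and 84.5%.

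Per base, the density was highest in exons of 400 to under 800 nt and lower in longer and shorter ones. In Ctrl it was 0.421 per kb in exons under 100 nt, 0.422 at 100 to under 200 nt, 0.632 at 200 to under 400 nt and 1.20 (1.12 to 1.27) at 400 to under 800 nt. It was 1.04 at 800 to under 1600 nt, 1.03 at 1600 to under 3200 nt and 0.808 (0.717 to 0.908) above. Cas had 0.523 (0.490 to 0.557), 0.471 (0.454 to 0.489) and 0.659 in the 3 short classes, where exons under 100 nt were denser than the next class, and 1.12, 0.978, 0.972 and 0.691 in the long ones. The intervals of the shortest and longest of the long classes did not overlap in either library. The limit of 400 nt did not mark an edge in the data: exons of 350 to under 400 nt had 1.07 peaks per kb in Ctrl and 0.947 in Cas, beside 1.17 and 1.12 in exons of 400 to under 450 nt.

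**Figure D1:**
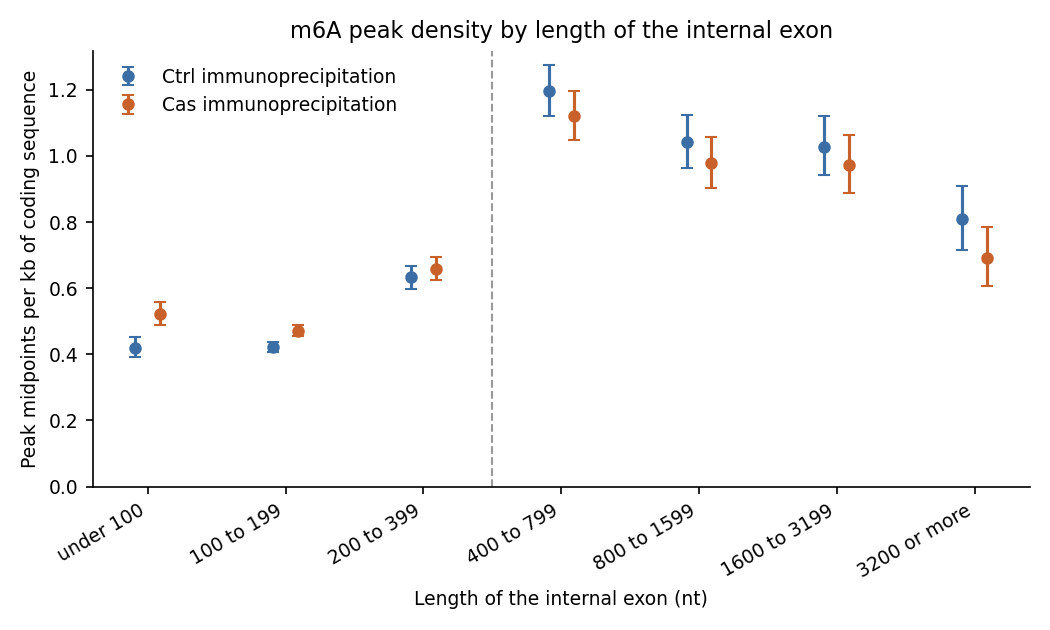
Peak midpoints per kb of coding sequence (vertical axis) in internal exons grouped by exon length in nt (horizontal axis), for the Ctrl and the Cas immunoprecipitation, 1 library each. Bars are exact Poisson 95% intervals and the dashed line is the 400-nt limit; the density is highest at 400 to under 800 nt, at 1.20 in Ctrl and 1.12 in Cas.

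Inside long exons peaks were sparse next to the junctions. In Ctrl the density was 0.456 per kb (0.370 to 0.555) over the 50 bases next to a junction and 0.814 at 50 to under 100 nt. It reached 1.48 (1.36 to 1.61) at 200 to under 300 nt, then fell to 1.10 at 400 to under 800 nt and 0.755 (0.668 to 0.849) beyond. Cas had 0.507, 0.765, 1.27, 1.06 and 0.667 in the same classes. The low zone lay on both sides of the exon, with 0.443 per kb in the first 50 bases and 0.467 in the last 50 in Ctrl, and 0.413 and 0.590 in Cas. In all, 11.6% of Ctrl and 12.5% of Cas midpoints lay under 100 nt from a junction.

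**Figure D2:**
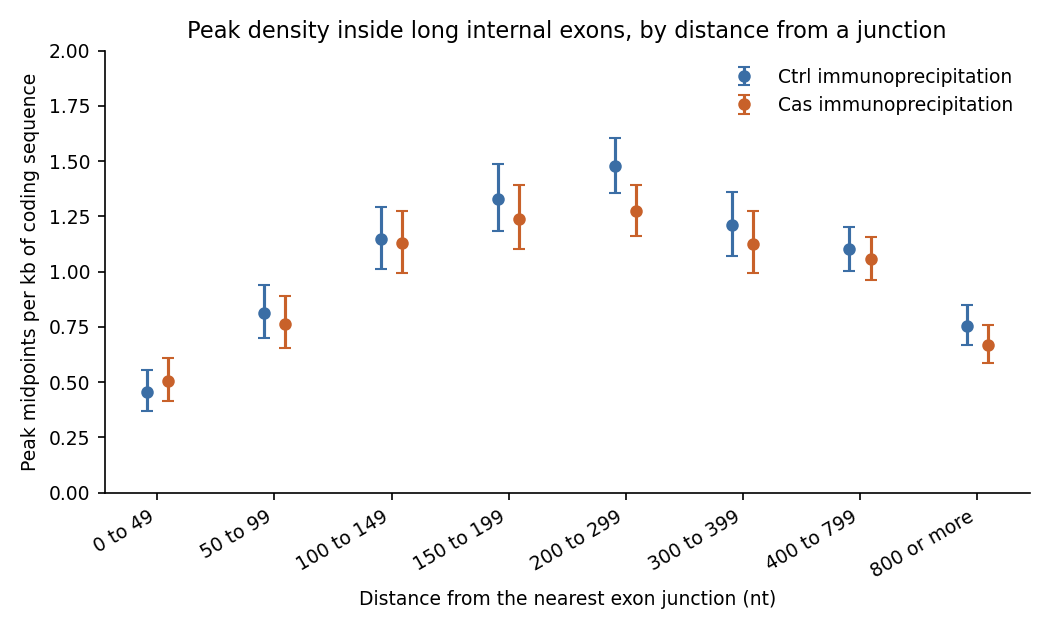
Peak midpoints per kb of coding sequence (vertical axis) in long internal exons by distance in nt from the nearest exon junction (horizontal axis), Ctrl and Cas immunoprecipitation, 1 library each. Bars are exact Poisson 95% intervals; the density rises from 0.456 in Ctrl and 0.507 in Cas next to the junction to 1.48 and 1.27 at 200 to under 300 nt.

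Once bases were matched for distance, long and short exons were closer to each other than their overall densities. Within 50 nt of a junction the Ctrl density of 0.456 in long exons compares with 0.432 (0.417 to 0.448) in short exons, and the intervals overlap. At 50 to under 100 nt long exons had 0.814 (0.700 to 0.941) and short exons 0.476 (0.450 to 0.503), which do not overlap. At 100 to under 150 nt the values were 1.15 (1.01 to 1.29) and 0.891 (0.794 to 0.997), and at 150 to under 200 nt, where short exons have only 45.6 kb, they were 1.33 (1.19 to 1.49) and 1.69 (1.33 to 2.11). In Cas the pairs from the junction outward were 0.507 and 0.491, 0.765 and 0.533, 1.13 and 0.845, and 1.24 and 1.51. The position of a peak is resolved only to about its width, so that neighbouring distance classes share peaks whose bases extend into both.

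Near junctions the density differed little between long exons of different length. Under 100 nt from a junction in Ctrl it was 0.654 per kb in exons of 400 to under 800 nt, 0.614 at 800 to under 1600 nt and 0.612 in longer ones. Cas had 0.661, 0.632 and 0.540 (0.364 to 0.771) there. The decline with length was seen further from the junctions. At 100 to under 200 nt Ctrl had 1.37 (1.24 to 1.51), 0.984 (0.813 to 1.18) and 1.11 (0.856 to 1.41) in the same classes. Cas had 1.27, 1.05 and 1.04 at that distance. Bases 200 nt or more from a junction had 1.62 peaks per kb (1.46 to 1.79) in exons of 400 to under 800 nt, 1.17 (1.07 to 1.28) in those of 800 to under 1600 nt and 0.949 (0.880 to 1.02) in those of 1600 nt or more. The corresponding Cas values were 1.47, 1.05 and 0.866. Along the coding sequence as a whole the members had no fixed place, with a median of 42.4% of the way from start to stop in Ctrl (quartiles 22.9 and 61.3) and 42.6% in Cas.

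By their medians the members were wider than peaks of short exons. Their median width was 226 bp in Ctrl (quartiles 166 and 316) and 219 bp in Cas (155 and 318), against 200 and 193 bp in short internal exons. The narrowest listed width, 100 bp, occurred in long and short exons alike. The widest member in Ctrl was a peak of 1611 bp at KLF7 and in Cas one of 1702 bp at CECR2, where the peaks of the other library were 200 and 185 bp wide. KLF7 is a zinc finger transcription factor and CECR2 a chromatin remodelling factor. These very wide peaks ran past their exons of 631 and 1417 nt and are members by their midpoint. The peak lay wholly inside its exon for 1999 of the Ctrl members and 1815 of the Cas members.

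Many exons held a row of peaks. In Ctrl 1262 exons had 1 member peak, 252 had 2 and 170 had 3 or more, with at most 8, and in Cas these numbers were 1156, 238 and 163, also with at most 8. Exons with several peaks thus held 48.0% of the Ctrl members and 48.8% of the Cas members. Neighbouring midpoints in an exon were a median of 581.5 nt apart in Ctrl and 536 nt in Cas.

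At the targeted genes, SPEN alone held members. SPEN encodes a large transcriptional repressor that binds RNA and recruits corepressors. Its exon 11 (chr1:15928091-15936266, plus strand) is 8176 nt long and had 5 peaks in Ctrl and 3 in Cas, and its exon 3 of 477 nt had 1 in each library. The 3 Cas peaks of exon 11 were centred 637, 2661 and 4386 nt into it, each overlapped by a Ctrl peak centred at 641, 2627 or 4430 nt. The Ctrl peaks centred at 1365 and 2416 nt, 143 and 100 bp wide, had no Cas counterpart. Beyond the peaks centred at 4430 nt in Ctrl and 4386 nt in Cas the exon held no further member. The site named for SPEN, position 3525, lies 1675 nt into this exon if counted from the start codon and 1471 nt into it if counted from the transcript start, and no member peak covered it. The nearest was the Ctrl peak centred at 1365 nt, which ran from transcript position 3348 to 3490. The partner transcript of SPEN does not start at the RefSeq gene start, so these positions may be shifted. YTHDF2, an m6A reader, and the glycolytic enzyme GAPDH had no member peak, which does not show that they had no listed peak outside the rule.

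**Figure D3:**
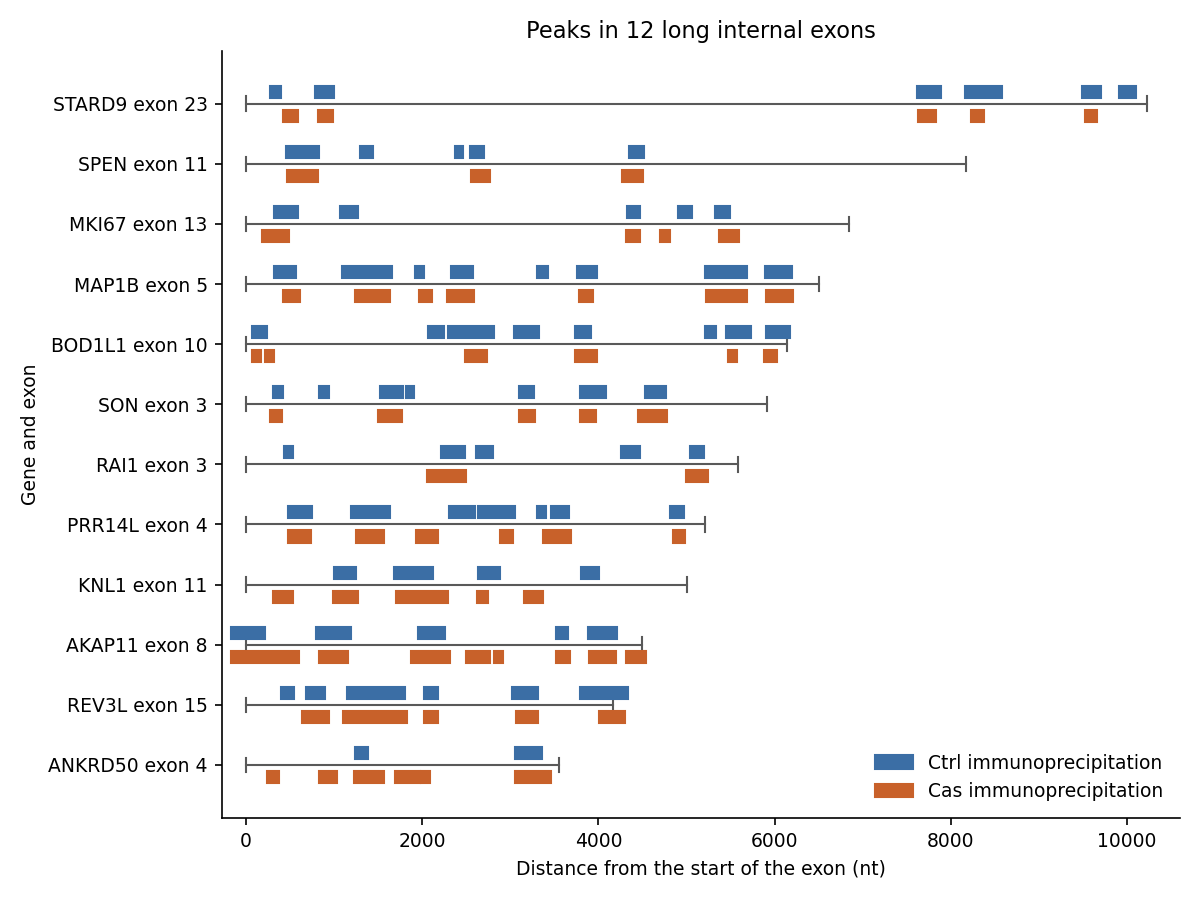
Position of the member peaks in 12 long internal exons: the horizontal axis is the distance in nt from the first base of the exon, each grey line is an exon drawn to scale, and boxes above and below it are Ctrl and Cas peaks at their full width. Peaks may run past an exon's ends, as at AKAP11; in SPEN exon 11 the 3 Cas peaks lie under Ctrl peaks, and ANKRD50 exon 4 has 2 Ctrl and 6 Cas peaks.

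The genes with the most members included chromatin regulators and large structural proteins. KMT2D, a histone methyltransferase, had 12 peaks in Ctrl and 14 in Cas over 6 long exons. Its relatives KMT2A and KMT2C had 10 and 8 peaks, and 9 and 9. FAT1, an atypical cadherin, had 11 in Ctrl and 10 in Cas. Golgi tether GOLGB1 and the matrix proteoglycan VCAN had 10 and 8 each, BOD1L1, which protects replication forks, had 9 and 7, and the microtubule-associated MAP1B had 8 and 7. RNF213, a ubiquitin ligase with an ATPase core, had 8 in each library, and PRR14L had 8 and 7. ZFHX4, a zinc finger homeobox factor, had 10 and 6. PALM2AKAP2, a locus for an A-kinase anchor protein, had 10 and 8, but it is listed as 2 transcripts that share a single exon of 2413 nt, so that its peaks there are partly the same RNA.

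KMT2C showed how closely the libraries could repeat each other. Its 9 Ctrl peaks lay in 5 exons of 719 to 1884 nt, and each was overlapped by 1 of the 9 Cas peaks. In exon 52 the peaks ran from transcript position 13486 to 13787 in Ctrl and from 13487 to 13787 in Cas. In exon 43 they ran from 10313 to 10513 and from 10314 to 10512. The largest difference in width was in exon 38, where a Ctrl peak of 636 bp met a Cas peak of 290 bp.

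The longest exons were not the ones with the most peaks. STARD9, which encodes a kinesin-like mitotic protein, has an exon of 10227 nt (chr15:42684116-42694342, plus strand) with 6 peaks in Ctrl and 5 in Cas. They fell on either side of a central gap, with no midpoint between 895 and 7753 nt in Ctrl or between 903 and 7729 nt in Cas. MKI67, the proliferation marker Ki-67, had 5 and 4 peaks in an exon of 6845 nt (chr10:128102579-128109423, minus strand), with a gap between 1167 and 4399 nt in Ctrl. TEX15, known from spermatogenesis, had 5 and 3 peaks in 7313 nt. MAP1A, a neuronal microtubule protein, had 2 Ctrl peaks and no Cas peak over 8185 nt, and its exon holds 14 GGACT. ANK3, which encodes the membrane adaptor ankyrin-G, had 1 and none over 7812 nt. By comparison BOD1L1 exon 10, at 6139 nt, had 8 in Ctrl and 6 in Cas.

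Lists of genes with related functions, chosen with results of these data known, describe what the members encode. Of all 1875 genes with a long internal exon in reach of the rule, 78.8% had a member peak in at least 1 library, with a median of 1 peak in each. The share was 74.7% in Ctrl, 69.6% in Cas and 65.5% in both libraries. Among 16 genes of mitosis and the centrosome all 16 had members in both libraries, 50 peaks in Ctrl and 51 in Cas. ASPM, a spindle pole protein, had 8 and 7, CENPF, a kinetochore protein, 8 and 6, the centrosomal CEP350 6 and 8, and the kinetochore scaffold KNL1 4 and 5. Among 15 genes of genome maintenance 14 had members in both, WRN being without. REV3L, the catalytic subunit of a translesion DNA polymerase, had 7 in Ctrl and 6 in Cas, BRCA2, a factor of homologous recombination, 7 and 6, FANCM, a DNA translocase of the Fanconi pathway, 4 and 5, and BRCA1 4 and 4. The list had 47 peaks in Ctrl and 44 in Cas. The lists were not matched to other genes for exon length, and no test against other genes was made.

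Of 32 chromatin and transcription regulators, 29 had members in both libraries, with 129 peaks and a median of 3 in Ctrl, and 124 and 4 in Cas, and BAZ2A, ASXL2 and EP300 had none. Of 11 genes listed under RNA processing 10 had members in both, 40 peaks in Ctrl and 35 in Cas, and CPSF6 had none. The list as chosen includes CCDC88A, with 2 peaks in Ctrl and 1 in Cas, which is not an established RNA processing gene. SON, a scaffold of nuclear speckles, had 7 peaks in Ctrl and 5 in Cas in an exon of 5916 nt. ZNF638 and PRRC2C had 6 and 5, and 6 and 4. ZC3H13 and VIRMA, which belong to the m6A methyltransferase complex itself, had 4 and 5, and 3 and 2.

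The list of cytoskeletal and scaffold genes was the one that differed most between the libraries. All 19 of its genes had members in Ctrl and 14 (73.7%) in Cas, the latter near the 69.6% of all genes, with 72 and 52 peaks. PCLO, MAP1A, AKAP6, SYNE1 and PLEC were in Ctrl alone. PCLO and BSN, scaffolds of the presynaptic active zone, had the largest differences, with 9 and 0 peaks and with 6 and 1. Without them, a split made after the values were seen, the list had 57 peaks in Ctrl and 51 in Cas. All 17 genes of this shorter list had members in Ctrl and 13 (76.5%) in Cas. AKAP9, a centrosomal anchor of kinase A, had 7 in each library, and AKAP11, another such anchor, 5 in Ctrl and 8 in Cas.

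Across all members, 1858 Ctrl peaks (76.6%, Wilson 95% interval 74.9 to 78.2) were overlapped by at least 1 bp by a Cas peak, where the share over all Ctrl peaks of the series was 75.8%. Of the Cas members 1870 (82.9%, 81.3 to 84.4) were overlapped by a Ctrl peak, beside 78.0% of all Cas peaks. On the transcripts taken by the rule these shares were 76.4% for all Ctrl peaks and 78.2% for all Cas peaks. Members are wider than other peaks, and the comparison at equal width follows. Short internal exons had the opposite order, where a Cas peak met 79.7% of those in Ctrl (78.6 to 80.9) and a Ctrl peak met 72.8% of those in Cas (71.6 to 74.0).

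Overlap rose with peak width, and at equal width the interval of the narrow Ctrl members lay below the share of all Ctrl peaks, which include them. Under 150 bp the share was 40.8% of Ctrl members (36.2 to 45.6) beside 2999 of all 5995 Ctrl peaks of that width, and at 150 to under 200 bp 70.5% (66.6 to 74.2) beside 77.3% of all. At 300 bp or more it was 93.1% and 92.5%. Cas members lay nearer to all Cas peaks, with 65.1% (60.8 to 69.1) and 62.1% under 150 bp, 77.2% and 76.1% at 150 to under 200 bp, and 95.1% (93.1 to 96.5) and 93.4% at 300 bp or more. The 568 Ctrl members without a counterpart had a median width of 157.5 bp, against 250.5 bp for the others, and the 386 such Cas members 157 against 237 bp. In 303 of the 568 and 289 of the 386 the same exon held a member peak of the other library elsewhere. The transcript had no peak at all in the other list for 130 of the Ctrl members and for 22 of the Cas members. This count is not given here for short internal exons or for all peaks, so it is not shown to be particular to the members.

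A share of the listed peaks had both ends on a 10-base grid, starting at a position ending in 1 and ending at one that ends in 0. This held for 27.7% of Ctrl and 31.3% of Cas members, beside 27.2% and 28.9% of all peaks. Members on the grid were overlapped in 55.3% of cases in Ctrl and 72.8% in Cas, and those off it in 84.7% and 87.5%. Nothing in the labels says what sets these peaks apart, and their part in the differences between libraries was not tested.

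Member peaks were fewer in Cas than in Ctrl while peaks in short exons were more. The number of Cas peaks per Ctrl peak was 0.930 in long internal exons (exact binomial 95% interval 0.878 to 0.985) and 1.12 in short ones (1.07 to 1.16), beside 0.984 for all peaks on the same transcripts. Fewer peaks in Cas were not particular to long internal exons. The stop codon window had 2303 in Ctrl and 2213 in Cas, last coding exons 1345 and 1213, and single coding exons 133 and 116. After the coding sequence there were 5983 and 5649, and before it 760 and 651. First coding exons went the other way, with 447 and 455. Among the short classes the ratio fell with exon length, from 1.24 (1.13 to 1.37) under 100 nt and 1.12 (1.06 to 1.18) at 100 to under 200 nt to 1.04 at 200 to under 400 nt. In the 4 long classes it was 0.937, 0.940, 0.946 and 0.855, each with an interval that includes 1. Without the grid peaks the ratios were 0.883 (0.824 to 0.946) in long and 1.11 (1.06 to 1.17) in short exons, and in the wider 50% of each list 0.926 and 1.13, settings added after the values had been seen. The treatment and other differences between the 2 libraries cannot be told apart.

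Exon by exon most counts were the same. Of the 1799 exons with a member peak in either library, 1442 had one in both, 242 in Ctrl alone and 115 in Cas alone. The number of peaks was equal in 1131 exons, higher in Ctrl in 400 and higher in Cas in 268. By gene, 894 had equal numbers, 348 more in Ctrl and 235 more in Cas. These splits are not given here for other exon classes or for all transcripts, so they are not shown to be particular to the members. Last coding exons with a peak numbered 973 in Ctrl and 884 in Cas, and single coding exons 97 and 90. Short internal exons with a peak numbered 4691 and 5237, and first coding exons 373 and 376.

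The largest losses from Ctrl to Cas were at PCLO (9 peaks in Ctrl, 0 in Cas), MBD5 (5 and 0), BSN (6 and 1), ZFHX4 (10 and 6) and RAI1 (6 and 2). RESF1 (5 and 1) had the same difference as the last 2, which come before it by bases covered. MBD5 is a methyl-CpG-binding domain protein and RAI1 a chromatin-associated transcription regulator. All 9 PCLO peaks lay on the 10-base grid, as did 4 of the 5 at MBD5 and 4 of the 5 at BSN without a counterpart. Among all 568 Ctrl members without a counterpart, 300 (52.8%) lay on the grid. At RAI1 the 2 Cas peaks in exon 3 (chr17:17792933-17798513, plus strand), 434 and 244 bp wide, each met a Ctrl peak, and the 4 Ctrl peaks without a counterpart, all on the grid, were 100 to 200 bp wide. At ZFHX4 3 of the 4 Ctrl peaks without a counterpart lay on it.

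The largest gains were at ANKRD50 (3 and 7), GCC2 (1 and 5), KIAA1671 (2 and 6), AKAP11 (5 and 8) and SETD1A (4 and 7). ANKRD11 (5 and 8), LUZP1 and TTBK2 (1 and 4 each) and RASAL2 (0 and 3) tied with the last 2, which come first by bases covered. ANKRD50 takes part in endosomal recycling, GCC2 is a golgin of the trans-Golgi network and SETD1A a histone methyltransferase. At ANKRD50 exon 4 (chr4:124668984-124672534, minus strand) the Ctrl peaks were centred 1309 and 3205 nt into the exon and met Cas peaks centred at 1390 and 3256 nt, while the Cas peaks at 306, 930, 1830 and 2040 nt had no counterpart. At GCC2 the single Ctrl peak, from transcript position 1962 to 2115, was repeated in Cas from 1966 to 2113. Of the Cas peaks without a counterpart, 3 of 4 at ANKRD50, 4 of 4 at GCC2 and 4 of 4 at KIAA1671 lay on the grid. Among all 386 Cas members without a counterpart, 192 (49.7%) did. At SETD1A exon 7 all 4 Cas peaks overlapped 1 of 2 Ctrl peaks, and they covered 760 bases where the Ctrl peaks covered 500.

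The sequence of the members was searched for DRACH and GGACT on the transcript strand, every GGACT being also a DRACH match. GGACT occurred in 749 Ctrl members (30.9%, Wilson 95% interval 29.1 to 32.7) and 671 Cas members (29.7%, 27.9 to 31.7). In short internal exons, whose peaks are narrower, 23.6% and 21.2% held it. Per kb of peak the members had 1.50 GGACT in Ctrl and 1.45 in Cas, against 1.24 and 1.12 for peaks of short exons. DRACH, being short and degenerate, was found in 98.7% and 97.7% of members. As in the KMT2C, BOD1L1 and AKAP9 stretches above, most members held no GGACT.

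Coding bases of long internal exons covered by a peak had 1.54 GGACT per kb in Ctrl, against 0.982 in bases of the same exons outside peaks. In Cas these were 1.47 and 1.02. DRACH was at 25.3 and 19.5 per kb inside and outside Ctrl peaks. The covered bases had less G and C, 49.5% against 52.7% in Ctrl and 48.8% against 52.8% in Cas. GGACT was most frequent near the peak midpoint, with the highest 20-nt step at the midpoint in Ctrl (1.88 per kb) and 40 nt upstream of it in Cas (2.02). The central step of Cas had 1.71. At 300 nt upstream of the midpoint the values were 0.894 in Ctrl and 1.05 in Cas.

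Seen from the motif, a GGACT in a long internal exon was under a peak more often than one in a short exon. Of 2598 such sites 36.5% were covered in Ctrl (34.7 to 38.4) and 32.5% in Cas, where 26.9% and 24.9% of the coding bases were covered. Of 10818 sites in short internal exons 12.3% and 12.2% were covered, with 10.7% and 11.7% of bases. Within long exons the covered share in Ctrl rose from 25.0% of sites under 50 nt from a junction (19.9 to 30.9) to 43.9% at 200 to under 300 nt (39.3 to 48.6) and was 23.7% at 800 nt or more (19.4 to 28.6). In Cas it was 24.2%, 36.7% and 23.7%. GGACT itself was about as frequent in long as in short exons, at 1.13 and 1.07 per kb.

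The reading frame of GGACT differed somewhat between covered and uncovered sites of long exons. Its first G was the last base of a codon in 49.3% of 1155 sites under a peak of either library (46.4 to 52.1) and in 55.6% of 1443 sites under none (53.0 to 58.1). It was the middle base in 27.1% (24.6 to 29.7) and 21.3% (19.2 to 23.5), and the first base in 23.6% and 23.1%. The same shift in the last base, 49.6% against 55.3%, was found in short internal exons.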

How the data were processed

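The deposited lists give, for each peak, a RefSeq transcript, a first and a last position along it and a further position of unstated meaning, with no count, score, fold or p-value, so depth is unknown. Per the submitters' processing notes, FastQC, fastp, HISAT2, SAMtools, edgeR and HOMER were used, with GRCh38 as the build; use of the input, the threshold and the tool that called peaks were not given in the sources used here. Input libraries were not used here.

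Of 11254 listed transcripts, 10579 were coding, 10015 had a single GENCODE release 29 partner, 1082 of these had a peak past its end, and 8542 coding ones with a stop codon remained. On 1643 of them (19.2%) the partner starts within 10 nt of the RefSeq gene start, called a matching 5' end here. The starts of the listed RefSeq transcripts themselves were not compared, so positions may be shifted against the exons on any transcript. Peaks were placed by their midpoint, densities divided by coding bases over 200 nt upstream of the stop codon, and overlaps required 1 bp on the same transcript (python 3.11.15, numpy 2.4.6, scipy 1.17.1, matplotlib 3.10.9). Placement and overlap were tested on simulated data. With 1 library a group no test was made; Wilson, Poisson and binomial 95% intervals cover the counting of peaks only.

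The members, gene lists and tests were chosen with earlier results of these data known. Named genes were the targeted genes, the 12 with most member peaks, the 6 longest exons, the 5 largest gains and losses, the 5 widest peaks of each library and the 4 leaders of each list. Sequences outside transcripts with matching 5' ends are not shown, a restriction made after the values were seen. Alternatives varied exon length, stop codon window, placement, overlap, motif and peak width.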

Additional observations from a re-analysis of the deposited data

How the results depend on the processing

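Of 83 alternative values 30 lay within the 95% interval of the reported value and 15, all counts, within 1.5 times of it. The other 38 moved. Counts and shares of 1 library have no direction to reverse, and none of the ratios crossed 1. Among those 15 counts, leaving out peaks on the 10-base grid gave 1755 Ctrl and 1549 Cas members, 1069 exons with peaks in both libraries and 334 in Ctrl alone. With exons of 1000 nt or longer there were 1238 Ctrl and 1132 Cas members, with density ratios of long over short exons of 1.84 and 1.55, overlap of 72.9% and 79.9%, and GGACT in 27.9% and 26.4%. With the whole peak inside the exon the ratios were 17.2 and 14.1, because short exons cannot hold most peaks by construction; Ctrl overlap was 74.7% and GGACT 29.1% and 27.5%. On transcripts with a matching 5' end there were 458 and 427 members and ratios of 2.49 and 2.10. In the wider 50% of each list there were 1510 and 1398 members, ratios of 2.66 and 2.18, overlap of 69.0% and 74.7% with fewer peaks to meet, GGACT in 36.6% and 36.4%, 907 exons with peaks in both libraries and 200 in Cas alone. Without peaks on the 10-base grid the Ctrl ratio was 2.40, overlap 68.3% and 77.5% with fewer peaks to meet, and GGACT 32.8% and 32.1%. A reciprocal overlap of 50%, which can only lower the share, gave 59.4% and 64.0%. Placed by the further position, 13.7% and 14.7% of members lay under 100 nt from a junction. GGACT within 50 nt of the midpoint, a narrower window than most peaks, was found in 16.3% and 16.0%. Member counts fall by construction in every subset, and where no construction is named the cause of other moves was not tested. The number of Cas per Ctrl peaks stayed between 0.883 and 0.932 in long and between 1.11 and 1.13 in short exons, although the interval reached 1.07 in long exons with a matching 5' end and began at 0.981 in short exons with the whole peak inside. No paired analysis was possible because there is only 1 immunoprecipitation library for Ctrl and 1 for Cas. The unknown depth means that a missing peak does not show missing methylation.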
